A study of Mus musculus with 24 samples.

Results

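A total of 44 genes of the cell cycle and of DNA replication were followed in the mouse distal jejunum, out of 34471 genes with a count in at least 1 library. They were chosen by gene name from a list of genes with a known part in S phase or mitosis, and the rule kept a gene if 3 or more of the 24 libraries each held 10 or more of its counts. All 44 passed, as did 21694 genes in all, and all 44 were tested in every comparison. Poly(A) RNA of 24 age-matched mice was sequenced, with 1 library per mouse and 3 mice in each of 8 groups. The groups were male and female mice, wild type or *Ptk6*-/-, that drank regular water (control) or water with 100 mM succinate for 7 days. *Ptk6* encodes an intracellular tyrosine kinase of epithelial cells, and the question was what its loss does in the intestine of each sex, with and without succinate, a metabolite that tuft cells sense. Mice of both genotypes were on the C57BL/6 background, and the disruption was germline, so every cell of a *Ptk6*-/- mouse carried it and effects of the epithelium and of other cells cannot be told apart. The labels name no littermate pairs, and p-values measure the spread between these mice only.

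The small intestine renews its epithelium continuously: stem cells and their transit-amplifying daughters divide in the crypts, and the cells of the villi no longer cycle. Before S phase, licensing factors load the Mcm2-7 helicase onto origins of replication under the control of E2F and cyclin E, and replication factors then copy the DNA from nucleotides made for the purpose. Genes of mitosis are held back by the DREAM complex and switched on later, in G2, by the MuvB complex with B-Myb and FOXM1, and their products build the spindle, attach the chromosomes and trigger anaphase. In whole tissue the level of such a transcript depends on how many cells cycle, and fewer cycling cells and less RNA per cell cannot be told apart here.

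By role, 9 members license origins or unwind DNA, 2 act at the replication fork, 5 supply nucleotides, 4 are regulators of entry into the cycle or of mitotic genes, 7 are mitotic cyclins and kinases, 4 act in the spindle checkpoint or at anaphase, 7 are motors and binders of the spindle and 6 belong to centromeres and chromosomes. The promoters of some of these genes carry the letters through which S phase and mitotic genes are commonly told apart, so a few with matches are shown. RefSeq promoter windows of GRCm38.p6, from 250 bases before to 50 bases after the annotated start, were found for 36 of the 44 members (39 windows). Those windows were searched on both strands for E2F letters (TTTCCCGC, TTTGGCGC, TTTGCCGC or TTTCGCGC), for the cell cycle homology region (CHR; TTTGAA or TTCGAA) and for CCAAT, the box of NF-Y. E2F letters stood in 6 of the 14 members of replication with a window (42.9%), in 1 of 20 members of mitosis (5.0%) and in 2.6% of all 27025 genes with a window. CHR and CCAAT stood together in 16 of the 20 members of mitosis (80.0%), in 2 of 14 members of replication (14.3%) and in 9.65% of all genes. CHR alone, which is only 6 letters long, was in 80.0% of the members of mitosis, 21.4% of the members of replication and 21.7% of all genes, and CCAAT was in 18 of 20, 57.1% and 41.1%. A match is a string of letters and not a shown binding site, and neither regulator with a window held any of the 3 motifs.

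The 170 bases before the start are printed for 6 members, 5′ to 3′ on the strand of the gene, with every motif match in capitals. They show E2F letters together with CCAAT boxes (*Mcm5* and *Mcm6*, 2 subunits of the helicase), all 3 motifs (*Cdk1*, the kinase that starts mitosis) and CHR with CCAAT (*Cdc20*, the activator of the anaphase-promoting complex, *Kif11*, the motor that separates spindle poles, and *Ube2c*, the ubiquitin-conjugating enzyme of that complex). They lie, in GRCm38.p6, at chr8:75109339-75109508 on the plus strand (*Mcm5*), chr1:128359706-128359875 on the minus strand (*Mcm6*), chr10:69352913-69353082 on the minus strand (*Cdk1*), chr4:118437344-118437513 on the minus strand (*Cdc20*), chr19:37376212-37376381 on the plus strand (*Kif11*) and chr2:164769759-164769928 on the plus strand (*Ube2c*). In *Mcm6* there were 3 matches to E2F letters, 2 of them overlapping on opposite strands, and in *Cdk1* there were 2 CHR matches, the nearer 15 bases before the start.
Mcm5: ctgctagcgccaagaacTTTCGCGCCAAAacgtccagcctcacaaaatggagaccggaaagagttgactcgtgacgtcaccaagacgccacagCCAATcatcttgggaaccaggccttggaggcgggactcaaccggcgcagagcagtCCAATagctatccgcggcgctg
Mcm6: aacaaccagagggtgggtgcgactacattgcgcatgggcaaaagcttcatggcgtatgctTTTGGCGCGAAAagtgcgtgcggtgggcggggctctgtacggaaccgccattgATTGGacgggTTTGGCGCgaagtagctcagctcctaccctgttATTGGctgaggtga
Cdk1: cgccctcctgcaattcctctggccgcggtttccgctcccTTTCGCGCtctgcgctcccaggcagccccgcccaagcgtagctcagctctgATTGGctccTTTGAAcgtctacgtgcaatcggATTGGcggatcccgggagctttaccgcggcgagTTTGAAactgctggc
Cdc20: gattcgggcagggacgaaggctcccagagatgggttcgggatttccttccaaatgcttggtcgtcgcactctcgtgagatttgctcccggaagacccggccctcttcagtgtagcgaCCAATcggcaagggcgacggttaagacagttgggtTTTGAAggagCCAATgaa
Kif11: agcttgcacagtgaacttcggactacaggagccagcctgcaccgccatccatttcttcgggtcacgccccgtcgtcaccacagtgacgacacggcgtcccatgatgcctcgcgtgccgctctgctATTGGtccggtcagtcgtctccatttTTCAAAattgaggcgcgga
Ube2c: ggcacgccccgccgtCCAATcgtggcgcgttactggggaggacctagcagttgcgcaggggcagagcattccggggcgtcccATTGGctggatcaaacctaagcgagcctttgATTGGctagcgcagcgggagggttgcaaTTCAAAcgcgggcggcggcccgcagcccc

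Libraries held 8080321 to 52824743 counts (median 43017686.5), and *Ptk6* itself had 7 to 61 counts in the 12 *Ptk6*-/- libraries against 284 to 2405 in the 12 wild type ones. In 3 libraries other facts stood apart. Replicate 1 of the male wild type controls had 51.2% of its counts on a gene for 18S ribosomal RNA, and replicate 1 of the male *Ptk6*-/- mice on succinate had 29.7% there and the lowest total, whereas the other 22 libraries had 0.108% to 4.486%. Replicate 2 of the female wild type mice on succinate had a summed level of 20390 CPM (counts scaled to the TMM-adjusted total of the library) on 7 heart genes, against at most 225 in any other library. Its label as female is in doubt, since the Y-linked gene *Ddx3y* was at 25.04 CPM there and at no more than 0.158 in the other 11 female libraries. Yet *Xist*, of the X chromosome, was at 79.1 CPM in it. Whether the library was mislabelled or a mixture was not tested. For the comparisons that rest on these libraries, the median of the members is given with and without them, and so are the single members that moved most.

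Levels were first compared between genes per length, in FPKM (fragments scaled to exon length and to the mapped fragments of the library, as deposited). *Pcna*, the sliding clamp of the polymerases, had the highest median over the 24 libraries, 22.2 FPKM. It was followed by *Ube2c* at 14.2, *Cdc20* at 13.0, *Ccnb2*, for cyclin B2, at 10.5 and *Plk1*, a mitotic kinase, at 10.1. Lowest were *Cenpf*, of the outer kinetochore, at 0.538, *Hmmr*, a binder of spindle microtubules, at 0.636 and *Cdc6*, which loads the helicase, at 0.657. Within roles the medians ranged from 0.657 to 8.70 FPKM for licensing and helicase genes, from 2.06 to 5.43 for nucleotide supply, from 1.14 to 1.60 for the regulators, from 1.71 to 10.5 for mitotic cyclins and kinases and from 0.636 to 3.75 for spindle genes. Checkpoint and anaphase genes ranged from 0.860 to 14.2 FPKM and centromere and chromosome genes from 0.538 to 7.83. Deposited FPKM were lowest in male *Ptk6*-/- succinate replicate 1 for 36 members and in male wild type control replicate 1 for 6, the libraries with the most ribosomal RNA, so comparisons between groups used counts with TMM normalization.

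Between groups the members differed little beside the spread within groups. The ratio of the highest to the lowest of the 8 group means of CPM was 1.24 for *Cenpe*, a kinetochore motor, 1.58 for the median member and 2.91 for *Hmmr*. The SD of log2 CPM within groups had a median of 0.41 over the members, from 0.236 for *Mcm4* to 0.929 for *Gins2*, a part of the active helicase, and 2.6 for *Fen1*, the flap endonuclease that trims Okazaki fragments. *Fen1* had 0 counts in the 2 libraries richest in ribosomal RNA and 318 to 2435 in the other 22. The female *Ptk6*-/- mice on succinate had the highest group mean for 26 of the 44 members, and the lowest mean was that of the female wild type mice on succinate for 15 members and of the male *Ptk6*-/- mice on succinate for 12. Both of these lowest groups hold a library that stands apart, and the order without those libraries was not worked out.

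**Figure D1:**
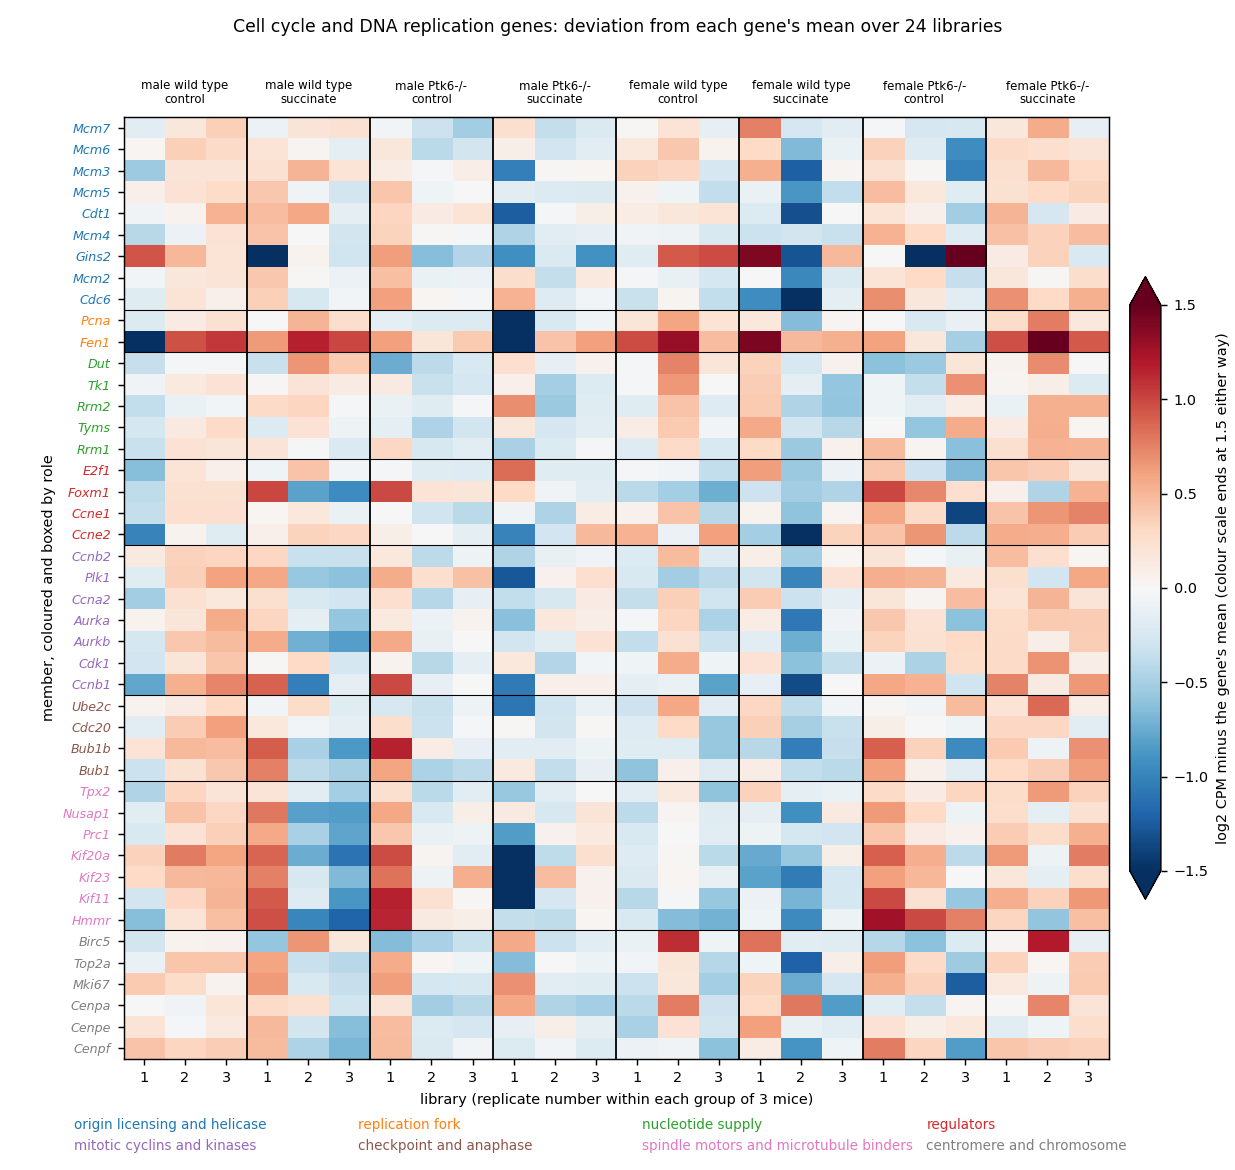
Heat map of the 44 members (rows, boxed and coloured by role) in the 24 libraries (columns, 3 mice per group), as log2 CPM minus the mean of the gene over all libraries. The 3 female *Ptk6*-/- mice on succinate sit above the mean for 42, 34 and 38 members, and replicate 2 of the female wild type mice on succinate for 2.

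**Figure D2:**
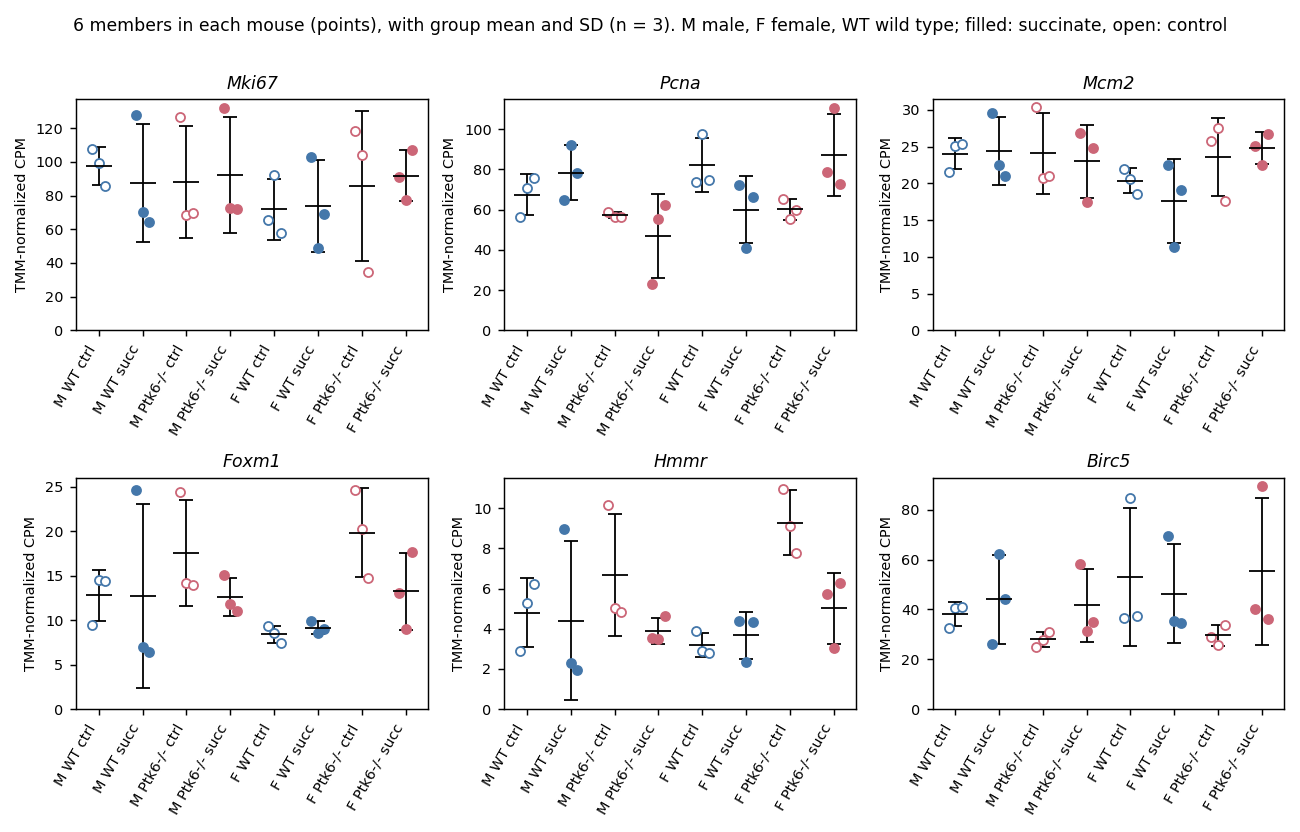
TMM-normalized CPM of *Mki67*, *Pcna*, *Mcm2*, *Foxm1*, *Hmmr* and *Birc5* in each mouse (points, filled for succinate), with group mean and SD (bars, n = 3) and a linear axis from 0. *Hmmr* in the female *Ptk6*-/- controls (7.77 to 10.96 CPM) lies above the female wild type controls (2.78 to 3.90 CPM), whereas the groups of *Mki67* overlap throughout.

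Each genotype and treatment was then compared by edgeR's quasi-likelihood test over all genes that passed the filter, and calls needed both an adjusted p (Benjamini-Hochberg) below 0.05 and a fold change of 2 or more. No member was called in any of the 8 comparisons of 2 groups, and none had an adjusted p under 0.05 at any fold. Log2 fold changes are *Ptk6*-/- minus wild type, or succinate minus control.

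In female controls *Hmmr* had the largest fold change of a member in the 8 comparisons of 2 groups. The mitotic regulator *Foxm1* and the spindle gene *Hmmr* were higher in each *Ptk6*-/- mouse than in each wild type mouse, at over 2-fold, and the fork and anti-apoptotic genes *Pcna* and *Birc5* were lower in each. None of these differences passed the test across all genes. *Hmmr* (chromosome 11, 40592222 to 40624249 of the deposited positions, GRCm39 by the submitters' notes) measured 3.90, 2.89 and 2.78 CPM in the wild type females and 10.96, 9.13 and 7.77 CPM in the *Ptk6*-/- females. The groups did not overlap, and the log2 fold change was 1.58 (SE 0.28, edgeR adjusted p = 0.367). *Foxm1* (chromosome 6, 128339930 to 128353109), the transcription factor of G2 and mitosis, was at 9.30, 8.62 and 7.40 CPM in wild type and 24.6, 20.2 and 14.7 CPM in *Ptk6*-/- females, again without overlap. Its log2 fold change was 1.27 (SE 0.27, edgeR adjusted p = 0.367). *Plk1*, the kinase that drives entry into mitosis, was at 23.3, 18.9 and 20.7 CPM against 39.7, 38.8 and 30.1 CPM. Its groups were apart too, at a log2 fold change of 0.83 (SE 0.22, edgeR adjusted p = 0.367).

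In the other direction, *Birc5* (survivin, of the chromosomal passenger complex) was at 36.6, 84.9 and 37.5 CPM in wild type and 29.1, 25.6 and 34.0 CPM in *Ptk6*-/- control females. The log2 fold change of -0.81 (SE 0.36, edgeR adjusted p = 0.455) rested largely on wild type replicate 2, without which it was -0.28. *Fen1* had a log2 fold change of -0.75 (SE 0.35, adjusted p = 0.467) and *Dut*, which keeps uracil out of DNA, one of -0.60 (SE 0.31, adjusted p = 0.504). *Pcna* was at 73.7, 97.6 and 74.9 CPM against 65.3, 55.1 and 59.96 CPM, which do not overlap, with a log2 fold change of -0.41 (SE 0.22, edgeR adjusted p = 0.506) and -0.26 without wild type replicate 2. *Mki67*, for the antigen Ki-67 of cycling cells, was at 65.7, 92.2 and 57.5 CPM against 118, 104 and 34.9 CPM, overlapping widely, at 0.30 (SE 0.45, adjusted p = 0.830). *Mcm2*, of the helicase, was at 0.25 (SE 0.25, adjusted p = 0.725).

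Over the 44 members in control females, 29 were higher and 15 lower in *Ptk6*-/- mice, with a median log2 fold change of 0.20 beside 0.04 for all genes tested. An unadjusted p under 0.05 was reached by 3 members, all higher, and by 11.1% of all genes, of which 0.0158% were called. The 2 genotypes were fully apart for 6 members (*Hmmr*, *Foxm1*, *Plk1* and *Prc1*, a bundler of spindle microtubules, higher; *Birc5* and *Pcna* lower), or 13.6%, against 18.9% of all genes. All 7 spindle members were higher (median 0.53), 4 of the 9 licensing and helicase members and both fork members were lower, and the licensing group had a median of 0.02. Among genes that are not members, 29 of 51 other replication genes were higher (median 0.06), 45 of 70 other mitosis genes (0.18) and 21 of 27 genes of E2F, cyclin and CDK control (0.27). All 11 B cell markers were higher in these *Ptk6*-/- females as well (median 1.01, sums of 37.0 to 90.2 CPM against 27.7 to 40.0 CPM), and their part in the members' values was not tested.

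Other ways of testing called some of these members. DESeq2 called *Hmmr* (log2 fold change 1.58, adjusted p = 0.00029) and *Foxm1* (1.27, adjusted p = 0.00647), among 1.36% of all genes. With voom and sample quality weights 6 members were called, all higher, among 10.4% of all genes. They were *Hmmr* (1.75), *Foxm1* (1.51), *Kif11* (1.10), *Ccnb1*, for cyclin B1 (1.08), *Bub1b*, of the spindle checkpoint (1.05), and *Kif20a*, a kinesin of cytokinesis (1.03). Without *Ptk6*-/- control replicate 3, edgeR called *Hmmr* (1.71, adjusted p = 0.0275), *Foxm1* (1.47, adjusted p = 0.0275) and *Bub1b* (1.01, adjusted p = 0.0378), among 9.65% of all genes. That mouse was the lowest of its group for all 3, with *Bub1b* at 5.98 CPM beside 21.7 and 14.8.

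Gene length moved with the fold changes in control females. It was not an annotated length but was worked out from the deposited counts, FPKM and library totals, as a median over libraries. Across the 44 members (points that share libraries, so r is given as a description) Pearson's r of log2 fold change with log2 length was 0.33, and the medians were 0.04 over the 22 shorter and 0.36 over the 22 longer members. With an offset for the trend of each library with gene length, r was -0.03 and the medians were 0.22 and 0.13. *Hmmr* (1.47), *Foxm1* (1.13) and *Plk1* (1.07) stayed the highest and *Birc5* (-0.77) the lowest under the offset, and *Pcna* was at -0.23.

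**Figure D3:**
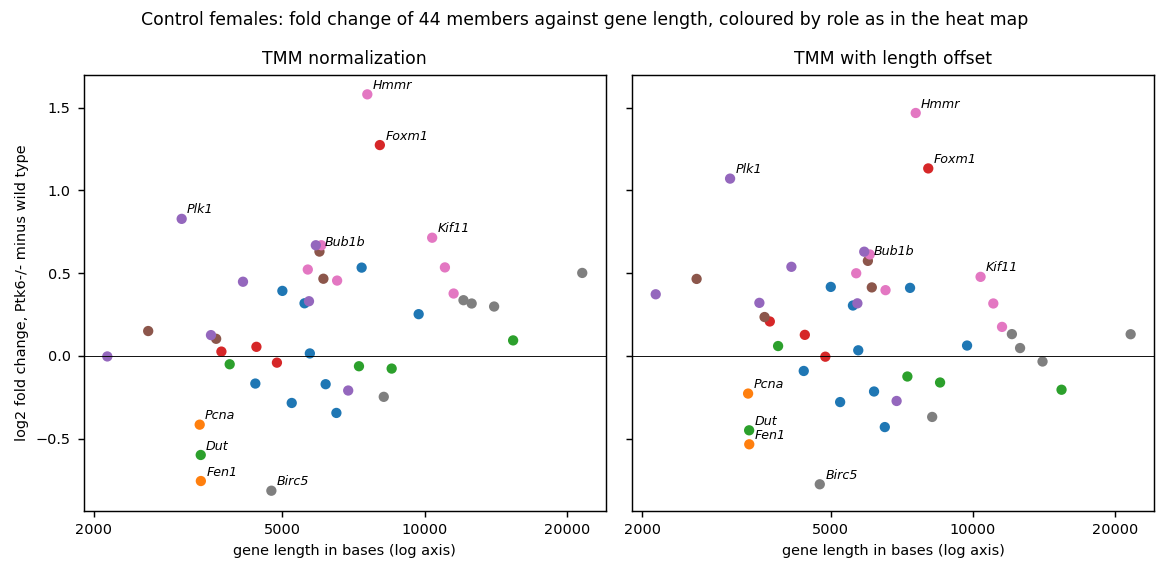
Log2 fold change of the 44 members in control females, *Ptk6*-/- minus wild type, against gene length in bases (log axis), with TMM normalization (left) and with an added offset for length (right), coloured by role. Length was worked out from the deposited counts and FPKM. *Hmmr*, *Foxm1* and *Plk1* lie at the top of both panels, and the median of the 22 longer members moves from 0.36 to 0.13.

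Control males showed smaller differences, mostly downward. *Birc5* was at 32.4, 40.7 and 41.0 CPM in wild type and 24.9, 27.9 and 31.1 CPM in *Ptk6*-/- males. The groups did not overlap, and the log2 fold change was -0.46 (SE 0.13, edgeR adjusted p = 0.0731). *Ube2c* was at 49.8, 52.4 and 59.1 CPM against 40.6, 38.2 and 45.6 CPM, also apart, with a log2 fold change of -0.39 (SE 0.11, edgeR adjusted p = 0.0818). *Mcm7*, a helicase subunit, was at 44.2, 56.2 and 63.9 CPM against 48.4, 39.9 and 34.9 CPM and overlapped, at -0.43 (SE 0.16, adjusted p = 0.146). DESeq2 gave *Birc5* an adjusted p of 0.0199 and *Ube2c* one of 0.0308, both at folds under 2. The highest members were *Foxm1* (0.44, SE 0.25, adjusted p = 0.328), *Hmmr* (0.45, SE 0.36, adjusted p = 0.481) and *Kif11* (0.32, SE 0.31, adjusted p = 0.571). *Pcna* was at -0.25 (SE 0.12, adjusted p = 0.216), *Mki67* at -0.17 (SE 0.25, adjusted p = 0.729) and *Mcm2* at -0.01 (SE 0.17, adjusted p = 0.970).

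In these males 13 members were higher and 31 lower (median -0.08, all genes 0.02). The unadjusted p was under 0.05 for 6 members, all lower (*Birc5*, *Ube2c*, *Mcm7*, *Ccnb2*, *Mcm6* and *Tyms*, for thymidylate synthase). Of all genes, 25.2% had such a p, 4.23% an adjusted p under 0.05 and 0.739% were called. Groups did not overlap for 2 members (4.55%), against 31.4% of all genes. Without the wild type replicate rich in ribosomal RNA and the other 2 libraries that stand apart, in a fit of the remaining 21 chosen after the values were seen, the median was -0.23 and 36 members were lower. With limma on log2(FPKM + 1) the median was instead 0.19. Among the other genes of the same processes, adjusted p was under 0.05, at folds under 2, for *Rnaseh2a* of replication and for *Hmgb2*, *Kif22* and *Stmn1* of mitosis and *Cdk4* of cyclin and CDK control, and in the list of 70 other mitosis genes 53 were lower and 13 had an unadjusted p under 0.05 in that direction. All 5 Paneth markers were lower in these *Ptk6*-/- males (median -1.03, sums of 4107 to 12390 CPM against 11220 to 13770 CPM), as were 8 of 11 B cell markers (median -0.59, sums of 35.6 to 89.3 CPM against 36.9 to 99.0 CPM). The part of these markers in the members' values was not tested.

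The genotypes were next compared within the mice on succinate. In females 42 of the 44 members were higher in *Ptk6*-/- mice, with a median log2 fold change of 0.49 beside -0.03 for all genes. In males 35 were lower, with a median of -0.12 beside -0.03, but the male median rested on wild type succinate replicate 1, without which it was 0.09 and 26 members were higher; without *Ptk6*-/- replicate 1 it was -0.22. No gene was called in either sex (0% of all genes in each). Members moved together within a mouse, as described below, so counts of members are not independent observations. The median deviation of the members in a library had a within-group SD of 0.257.

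The members with the smallest p in succinate females were genes of replication and of the spindle. *Mcm4*, of the helicase, was at 14.7, 15.1 and 14.6 CPM in wild type and 24.9, 23.3 and 25.5 CPM in *Ptk6*-/- mice. No values overlapped, and the log2 fold change was 0.74 (SE 0.24, edgeR adjusted p = 0.931). *Cdc6* was at 2.47, 1.59 and 4.30 CPM against 7.72, 5.88 and 6.90 CPM, also apart, at 1.29 (SE 0.44, edgeR adjusted p = 0.931). *Kif11* was at 11.3, 7.40 and 10.02 CPM against 17.5, 15.4 and 19.0 CPM, apart as well, at 0.85 (SE 0.30, edgeR adjusted p = 0.931). Only *Gins2* (-0.49, SE 0.60, adjusted p = 0.944) and *Cenpe* (-0.14, SE 0.34, adjusted p = 0.971) were lower. *Pcna* was at 0.53 (SE 0.33, adjusted p = 0.931), *Mcm2* at 0.49 (SE 0.33, adjusted p = 0.931) and *Mki67* at 0.31 (SE 0.35, adjusted p = 0.942).

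Every role had a positive median in succinate females, from 0.21 for nucleotide supply to 0.65 for the regulators, with 0.61 for spindle genes, 0.56 for mitotic cyclins and kinases and 0.49 for licensing and helicase genes. An unadjusted p under 0.05 was reached by 8 members, all higher, and by 4.52% of all genes. The groups did not overlap for 16 members, all higher (36.4%), against 10.8% of all genes. Without wild type replicate 2, which carried the heart transcripts, 39 members were higher, the median was 0.26, 3 had an unadjusted p under 0.05 upward and 1 downward, and, in a count added after the values were seen, 17 did not overlap (16 higher), against 17.5% of all genes. In that fit *Mcm4* was at 0.73, *Cdc6* at 1.00, *Kif11* at 0.67 and *Pcna* at 0.31. The same direction held in lists of genes that are not members: 42 of 51 other replication genes were higher (median 0.33), 63 of 70 other mitosis genes (0.48) and 23 of 27 genes of E2F, cyclin and CDK control (0.46), none with an adjusted p under 0.05.

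Cell type markers moved alongside. All 5 stem cell markers were higher in *Ptk6*-/- females on succinate (median 0.51), and their summed level was 505 to 552 CPM there against 162 to 310 CPM in wild type. Of 8 enterocyte markers 7 were lower (median -0.53), with sums of 15580 to 18350 CPM against 25720 to 34390 CPM. Sums weigh the most abundant markers most, and by the median deviation of a list in each mouse the genotypes overlapped. For enterocyte markers it was -0.234, -1.5 and -0.408 in *Ptk6*-/- and -1.14, -1.5 and 0.273 in wild type mice. For stem cell markers it was 0.427, 0.0151 and 0.133 against 0.146, -0.946 and -0.094, with -0.946 in wild type replicate 2. The 5 Paneth markers were all higher (median 0.53), and B cell markers were split, 5 of 11 higher. The part of these shares of cell types in the members' values was not tested.

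In succinate males the fork genes *Pcna* and *Fen1* were lower in each *Ptk6*-/- mouse than in each wild type mouse. Both were lowest in *Ptk6*-/- replicate 1. *Pcna* (chromosome 2, 132091082 to 132095234) was at 65.1, 92.2 and 78.1 CPM in wild type and 23.04, 55.4 and 62.1 CPM in *Ptk6*-/- males. The groups did not overlap, and the log2 fold change was -0.72 (SE 0.38, edgeR adjusted p = 1.00), or -0.45 without *Ptk6*-/- replicate 1, the library of lowest depth. *Mcm3*, of the helicase, was at -0.53 (SE 0.33) and *Cdt1*, which licenses origins, at -0.58 (SE 0.39). The highest values were 0.15 (SE 0.44) for *Aurkb*, a kinase of the chromosomal passenger complex, and 0.13 (SE 0.42) for *E2f1*, the S phase activator. *Mki67* was at 0.12 (SE 0.42) and *Mcm2* at -0.06 (SE 0.31), all of them with an edgeR adjusted p of 1.00. No member reached an unadjusted p under 0.05, as 2.72% of all genes did, and 3 did not overlap, all lower (*Pcna*, *Mcm3* and *Fen1*; 6.82%), against 8.66% of all genes. With the length offset the median turned from -0.12 to 0.06 and 27 members were higher. B cell markers were lower in these *Ptk6*-/- males (0 of 11 higher, median -2.04, sums of 32.3 to 60.3 CPM against 126 to 143 CPM), and their part in the members' values was not tested.

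The difference of these genotype effects between the sexes on succinate was fitted over all 24 libraries, a test chosen after the values were seen. It was positive, that is higher in females, for 42 of 44 members, with a median of 0.61 on the log2 scale. Without the 3 libraries that stand apart it was positive for 42 members as well, with a median of 0.44, and *Mcm4* was at 1.00 (SE 0.34, adjusted p = 0.837), *Cdc6* at 1.21 (SE 0.46, adjusted p = 0.837) and *Pcna* at 0.77 (SE 0.30, adjusted p = 0.837). An unadjusted p under 0.05 was reached by 7 members (*Mcm4*, *Pcna*, *Mcm5*, *Cdc6*, *Cdt1*, *Ube2c* and *Kif11*) and by 8.55% of all genes. No gene was called (0%), and the lowest adjusted p of a member was 0.409, of *Mcm4* at 1.05 (SE 0.32). In controls the difference was positive for 34 members (median 0.33), of which 0 had an unadjusted p under 0.05, and for 36 (median 0.40) without those libraries.

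**Figure D4:**
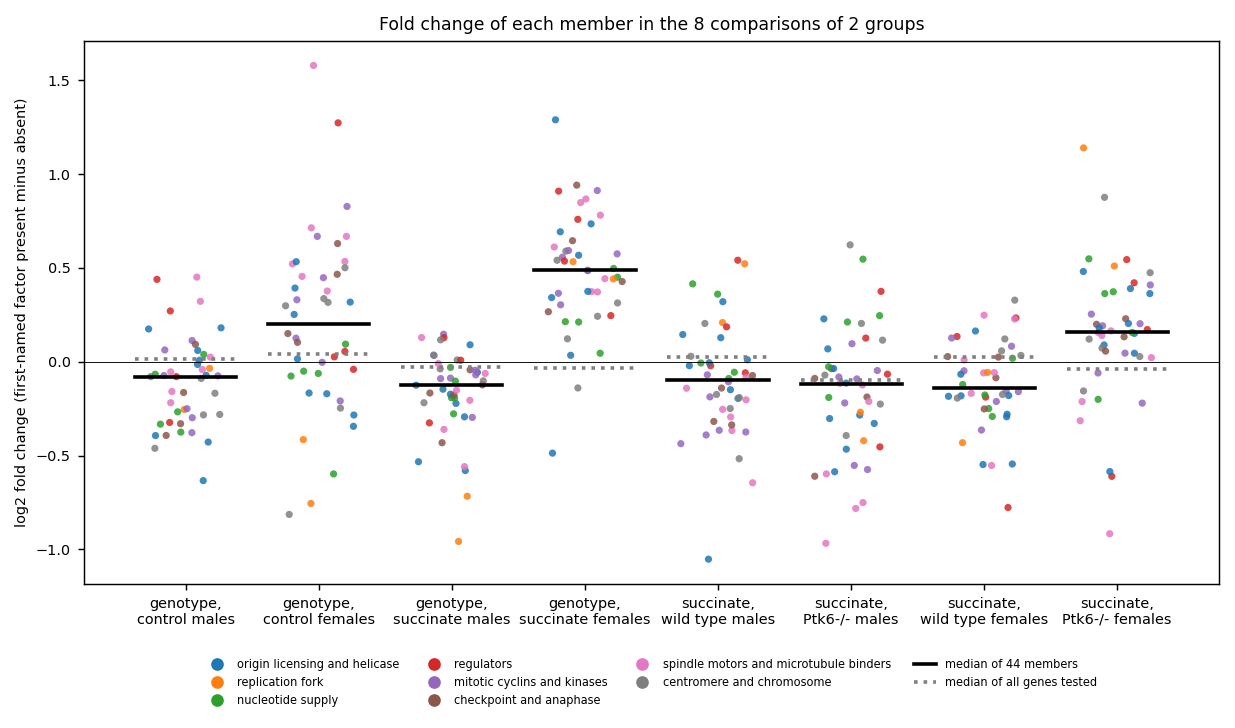
Log2 fold change of each of the 44 members (points, coloured by role) in the 8 comparisons of 2 groups, with the median of the members (solid bar) and of all genes tested (dotted bar). In succinate females 42 points lie above 0 with a median of 0.49, whereas the other medians lie between -0.14 and 0.20.

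Succinate was then compared with regular water within each sex and genotype. These comparisons share their groups with the genotype comparisons above, and values are given side by side. Wild type males had 12 members higher and 32 lower on succinate (median -0.10, all genes 0.02), and *Gins2* alone had an unadjusted p under 0.05, beside 4.07% of all genes. *Gins2* was at 34.1, 25.1 and 20.5 CPM in controls and 6.08, 18.4 and 14.4 CPM on succinate. Its groups did not overlap, at a log2 fold change of -1.05 (SE 0.41, edgeR adjusted p = 0.947). The other members with the smallest p were *Cenpf* (-0.52, SE 0.32) and *Ccnb2* (-0.36, SE 0.23) downward and *Ccne2*, for cyclin E2 (0.54, SE 0.31), *Rrm2*, of ribonucleotide reductase (0.36, SE 0.21), and *Dut* (0.42, SE 0.28) upward. *Pcna* was at 0.21 (SE 0.20), *Mki67* at -0.17 (SE 0.29) and *Mcm2* at 0.01 (SE 0.20). Groups did not overlap for 4 members (9.09%; *Ccne2*, *Rrm2* and *Mcm3* higher, *Gins2* lower), against 8.77% of all genes, and 0% of all genes were called. In the fit without the 3 libraries that stand apart, which include control replicate 1, 34 members were lower and the median was -0.19.

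Replicate 1 of the wild type males on succinate differed from the other 2 in the spindle genes. Their median deviation from the mean of each gene was 0.79 in that mouse and -0.49 and -0.84 in replicates 2 and 3, and *Kif20a* was at 18.9, 6.13 and 4.75 CPM beside 13.1, 17.6 and 15.5 CPM in the controls. Without it 4 members were called, all lower on succinate, among 5.8% of all genes. They were *Kif20a* (-1.55, adjusted p = 0.00785), *Bub1b* (-1.10, adjusted p = 0.0139), *Nusap1*, a spindle binder (-1.08, adjusted p = 0.0179), and *Aurkb* (-1.06, adjusted p = 0.0298). With voom and sample quality weights, which let a library count for less, the same 4 and *Hmmr* (-1.26, adjusted p = 0.0214) were called among 7.81% of all genes. With all 3 mice *Kif20a* was at -0.64 (SE 0.49, edgeR adjusted p = 0.947) and no group was apart for any of these 5 genes. B cell markers were all higher on succinate in wild type males (11 of 11, median 1.40), with sums of 126 to 143 CPM against 36.9 to 99.0 CPM, and their part was not tested.

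*Ptk6*-/- males had 11 members higher and 33 lower on succinate (median -0.12, all genes -0.10). None reached an unadjusted p under 0.05, beside 7.75% of all genes, and 0% of genes were called. *Kif11* was at 26.8, 14.1 and 12.2 CPM in controls and 3.57, 10.1 and 12.6 CPM on succinate, overlapping, with a log2 fold change of -0.97 (SE 0.47, edgeR adjusted p = 0.600) that was -0.51 without control replicate 1 and -0.68 without succinate replicate 1, the library of lowest depth. *Hmmr* was at -0.75 (SE 0.39, adjusted p = 0.601) and *Plk1* at -0.57 (SE 0.34, adjusted p = 0.617), or -0.75 and -0.29 without that library. Upward stood *Birc5* (0.62, SE 0.31, adjusted p = 0.600; 0.23 without succinate replicate 1), *Dut* (0.55, SE 0.24, adjusted p = 0.600) and *E2f1* (0.38, SE 0.38, adjusted p = 0.736). *Pcna* was at -0.27 (SE 0.32), *Mki67* at 0.12 (SE 0.39) and *Mcm2* at -0.04 (SE 0.29). All 7 spindle members were lower, with a median of -0.60. Groups did not overlap for 7 members (15.9%; *Hmmr*, *Plk1*, *Mcm4*, *Cdt1* and *Mcm5* lower, *Dut* and *Birc5* higher), against 23% of all genes, and with the length offset the median of the members was 0.07. Without succinate replicate 1 it was -0.20. All 5 stem cell markers were lower on succinate too (median -0.35, sums of 147 to 350 CPM against 289 to 629 CPM). That difference lay in replicate 1 of each group. The median deviation of the stem cell markers was -1.3 in succinate replicate 1 and -0.0708 and 0.0508 in replicates 2 and 3. In the controls it was 0.898 in replicate 1 and -0.203 and -0.0963 in the others. The part of these markers in the members' values was not tested.

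Wild type females had 15 members higher and 29 lower on succinate (median -0.14, all genes 0.03), and without replicate 2, which carried the heart transcripts, 28 were higher and the median was 0.07. *Kif23*, a motor of the central spindle, was at 15.6, 18.5 and 16.8 CPM in controls and 10.4, 8.79 and 15.2 CPM on succinate. These did not overlap, at a log2 fold change of -0.55 (SE 0.29, edgeR adjusted p = 0.685). *Cdt1* was at -0.55 (SE 0.36, adjusted p = 0.741), *Ccne2* at -0.78 (SE 0.53, adjusted p = 0.754) and *Pcna* at -0.43 (SE 0.30, adjusted p = 0.754). Without replicate 2 these values were -0.39 for *Kif23*, -0.24 for *Cdt1*, -0.39 for *Ccne2* and -0.21 for *Pcna*. The highest were *Cenpe* (0.33, SE 0.34), *Tpx2*, a spindle assembly factor (0.25, SE 0.29), and *E2f1* (0.23, SE 0.37), with *Mki67* at 0.06 (SE 0.35) and *Mcm2* at -0.18 (SE 0.31). No member reached an unadjusted p under 0.05, as 7.77% of all genes did, 0% of genes were called, and 4 members did not overlap, all lower (9.09%; *Kif23*, *Cdt1*, *Pcna* and *Mcm4*), against 13.3% of all genes. All 5 stem cell markers were lower on succinate (median -0.36, sums of 162 to 310 CPM against 258 to 331 CPM in controls) and all 11 B cell markers were higher (median 0.99, sums of 34.9 to 99.3 CPM against 27.7 to 40.0 CPM). The drop of the stem cell markers lay in replicate 2. Their median deviation from the mean of each gene was -0.946 there and 0.146 and -0.094 in replicates 1 and 3. In the controls it was -0.0481, 0.363 and -0.129. Enterocyte sums were 25720 to 34390 CPM on succinate against 41480 to 48440 CPM in controls. The part of these markers in the members' values was not tested.

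*Ptk6*-/- females had 35 members higher and 9 lower on succinate (median 0.16, all genes -0.04). *Fen1* was at 19.8, 14.6 and 9.18 CPM in controls and 25.4, 48.0 and 24.5 CPM on succinate. The groups were apart, with a log2 fold change of 1.14 (SE 0.40, edgeR adjusted p = 0.420) and 0.75 without succinate replicate 2. *Birc5* was at 0.88 (SE 0.39, adjusted p = 0.474), and at 0.34 without that mouse, and *Pcna* at 0.51 (SE 0.26, adjusted p = 0.517). *Hmmr*, high in the controls, was at 10.96, 9.13 and 7.77 CPM there and 5.74, 3.02 and 6.27 CPM on succinate, again apart. Its log2 fold change was -0.92 (SE 0.35, edgeR adjusted p = 0.441), *Foxm1* stood at -0.61 (SE 0.34, adjusted p = 0.541) and *Kif23* at -0.31 (SE 0.27, adjusted p = 0.701). *Mki67* was at 0.07 (SE 0.44) and *Mcm2* at 0.05 (SE 0.26). An unadjusted p under 0.05 was reached by 1 member in each direction and by 10.7% of all genes, and 0.0879% of genes were called. Groups did not overlap for 5 members (11.4%; *Fen1*, *Birc5*, *Pcna* and *Mcm3* higher, *Hmmr* lower), against 21.2% of all genes. Of the 5 Paneth markers 4 were higher on succinate (median 1.51, sums of 11000 to 33140 CPM against 5291 to 12190 CPM), and 6 of 8 enterocyte markers were lower (median -0.83, sums of 15580 to 18350 CPM against 18800 to 52250 CPM). Stem cell sums were 504.9 to 551.5 CPM on succinate against 223.6 to 498.4 CPM in controls. The median deviation of the stem cell markers overlapped, at 0.427, 0.0151 and 0.133 on succinate against 0.7, -0.0322 and 0.0759 in controls. The part of these markers in the members' values was not tested.

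Averaged over the 4 strata of sex and treatment, *Ptk6*-/- mice had 28 members higher and 16 lower (median 0.12). Without the 3 libraries that stand apart 24 were higher and 20 lower, and the median was 0.03. In the fit of all 24 libraries an unadjusted p under 0.05 was reached by 4 members, all higher: *Cdc6* (0.51, SE 0.17, edgeR adjusted p = 0.291), *Foxm1* (0.55, SE 0.20, adjusted p = 0.313), *Hmmr* (0.57, SE 0.24, adjusted p = 0.342) and *Mcm4* (0.24). Of all genes 13.4% had such a p, 0.0277% an adjusted p under 0.05 and 0.0184% were called. Lowest were *Dut* (-0.24, SE 0.15, adjusted p = 0.462), *Mcm7* (-0.20, SE 0.13, adjusted p = 0.487) and *Pcna* (-0.22, SE 0.14, adjusted p = 0.487), with *Mcm2* at 0.15 (SE 0.13) and *Mki67* at 0.13 (SE 0.20). Without male wild type succinate replicate 1, *Foxm1* was at 0.78 (adjusted p = 0.0225) and *Hmmr* at 0.84 (adjusted p = 0.0359), both under 2-fold.

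The average effect of succinate left 17 members higher and 27 lower (median -0.05). *Dut* (0.31, SE 0.15, adjusted p = 0.310) and *Kif23* (-0.45, SE 0.20, adjusted p = 0.286) had an unadjusted p under 0.05, beside 16.1% of all genes, of which 1.03% had an adjusted p under 0.05 and 0.728% were called. *Birc5* (0.37, SE 0.20) and *E2f1* (0.30, SE 0.17) followed upward and *Gins2* (-0.57, SE 0.33) and *Hmmr* (-0.40, SE 0.24) downward, and *Mki67* (0.01, SE 0.20), *Pcna* (0.01, SE 0.14) and *Mcm2* (-0.05, SE 0.13) lay near 0. Without the 3 libraries the succinate median was -0.03. Females had 25 members higher and 19 lower than males (median 0.04), and 30 higher and 14 lower (median 0.07) without replicate 2 of the female wild type mice on succinate, the library with Y-linked transcripts. Here 0 members had an unadjusted p under 0.05, beside 15.3% of all genes, of which 0.447% had an adjusted p under 0.05 and 0.36% were called. The smallest p were those of *Ube2c* (0.28, SE 0.14, adjusted p = 0.349), *Gins2* (0.63, SE 0.33, adjusted p = 0.358) and *Tpx2* (0.23, SE 0.13, adjusted p = 0.403) upward and *Kif23* (-0.28, SE 0.20, adjusted p = 0.520), *Mcm2* (-0.16, SE 0.13, adjusted p = 0.573) and *Bub1b* (-0.26, SE 0.22, adjusted p = 0.585) downward, with *Pcna* at 0.21 (SE 0.14) and *Mki67* at -0.18 (SE 0.20).

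Whether the succinate effect differed between genotypes was tested by an interaction within each sex. In females it was positive for 37 members and negative for 7 (median 0.28), and for 27 and 17 (median 0.11) without the 3 libraries that stand apart. *Pcna*, at 0.99 (SE 0.41, edgeR adjusted p = 0.536), was the member with an unadjusted p under 0.05, beside 8.21% of all genes, and 0% were called. It was at 0.74 (SE 0.29, adjusted p = 0.673) without those libraries. *Cdk1* (0.82, SE 0.40, adjusted p = 0.613) and *Dut* (0.84, SE 0.42, adjusted p = 0.631) came next, and *Hmmr* (-1.10, SE 0.68, adjusted p = 0.718), *Foxm1* (-0.70, SE 0.56, adjusted p = 0.802) and *Cenpe* (-0.44, SE 0.42, adjusted p = 0.850) were the most negative by p, with *Mcm2* at 0.28 (SE 0.36) and *Mki67* at 0.06 (SE 0.56). In males the interaction was positive for 20 members and negative for 24 (median -0.05, all genes -0.12), and for 26 and 18 (median 0.09) without those libraries. No member had an unadjusted p under 0.05, as 3.95% of all genes did, and 0% were called. *Mcm4* (-0.50, SE 0.32), *Kif11* (-0.89, SE 0.65) and *Cdt1* (-0.61, SE 0.48) had the smallest p downward and *Ccnb2* (0.25, SE 0.35), *Tyms* (0.29, SE 0.41) and *Cdc20* (0.24, SE 0.37) upward, with *Pcna* at -0.49 (SE 0.41), *Mki67* at 0.22 (SE 0.56) and *Mcm2* at -0.09 (SE 0.36).

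Mice of 1 group differed from each other in a shared way across the members. After the group mean of log2 CPM was subtracted, Pearson's r over the 24 libraries had a median of 0.43 over the 946 pairs of members. It was 0.02 over pairs of a member with each gene that passed the rule, the members themselves included. These are descriptions, since all points come from the same libraries and share depth and normalization. Members of mitosis had a median r of 0.57 with each other, members of replication 0.29, and pairs between these sets 0.38. Without the 3 libraries that stand apart the values were 0.63, 0.33 and 0.34.

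*Top2a*, the topoisomerase that untangles chromosomes, followed the other members most closely (median r 0.69), then *Mcm5* (0.62) and *Bub1b* (0.61). At the other end stood *Dut* (-0.15), the thymidine kinase gene *Tk1* (-0.002), *Gins2* (0.01) and *Birc5* (0.01). The closest pairs were *Mcm5* with *Cenpf* (0.92), *Kif11* with *Prc1* (0.92) and *Kif11* with *Kif20a* (0.91), and the most opposed were *Ccne2* with *Cenpa*, the centromeric histone (-0.71), and *Dut* with *Bub1b* (-0.63). Leaving out the 3 libraries, *Foxm1* with *Hmmr* was at 0.96 and *Dut* with *Plk1* at -0.82.

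**Figure D5:**
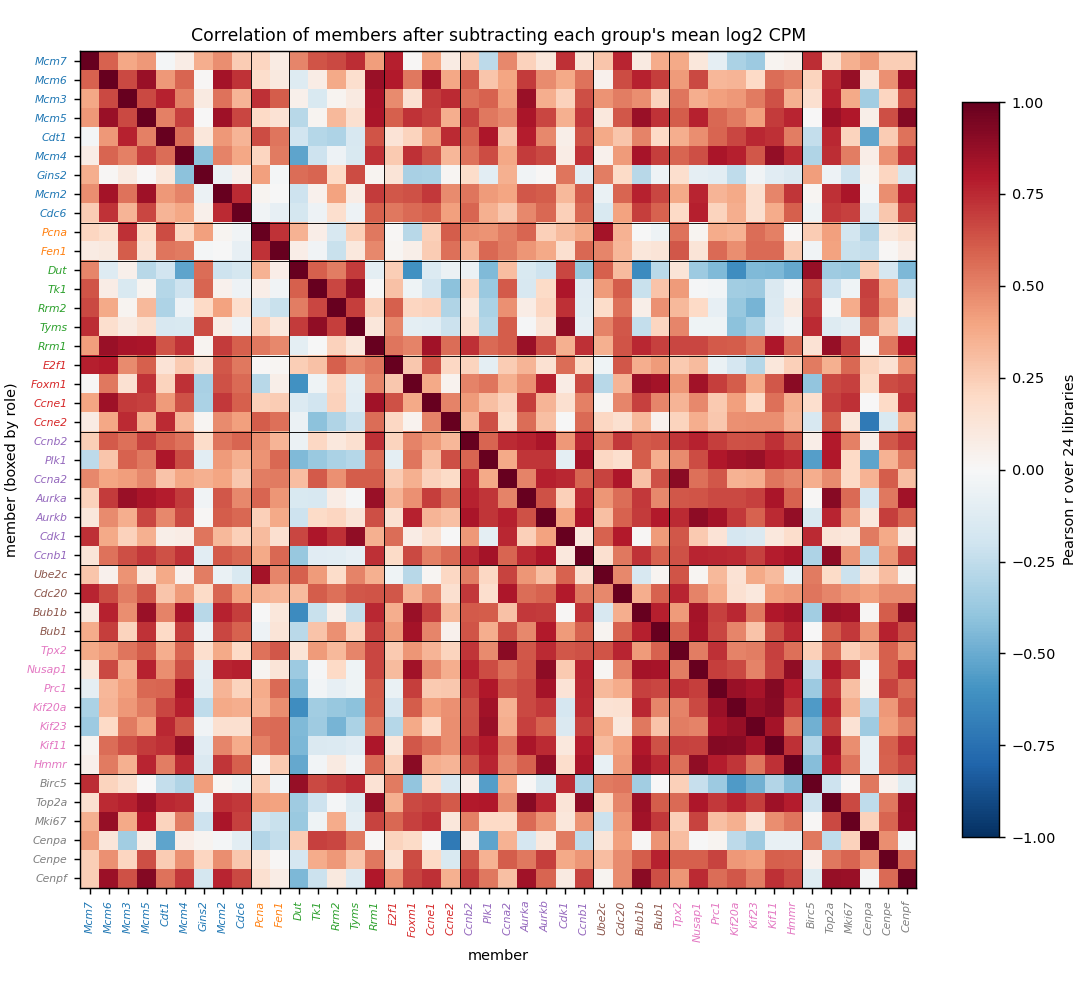
Pearson's r between members over the 24 libraries, after the group mean of log2 CPM was subtracted, for the 44 members in the same order on both axes and boxed by role. Spindle genes and mitotic kinases form a red block, whereas *Dut*, *Tk1*, *Rrm2*, *Tyms* and *Birc5* go together and are pale or blue against that block.

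Some members share their place with another gene. In the deposited annotation 14 members overlap a gene on the opposite strand, among them *Fen1* (*Tmem258* and *Gm10143*), *Gins2* (*Gse1*) and *Pcna* (*AV099323*). The libraries were stranded, but whether the counting used the strand is not given in the sources used here, so the levels of these members are uncertain to that extent. In the 2 libraries in which *Fen1* had 0 counts, *Gm10143* had 214 and 60 counts and at most 76 in the others.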

How the data were processed

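Distal jejunum RNA of 24 mice was sequenced paired-end from stranded poly(A) libraries. The authors trimmed reads with Cutadapt, mapped them with HISAT2 and assembled transcripts with StringTie, and the notes name GRCm39. The count values, as deposited, are raw reads per gene; the counting program is not given in the sources used here. The deposited FPKM values come from StringTie and ballgown, run by the authors.

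Counts (8080321 to 52824743 per library) went into edgeR 4.0.16 under R 4.3.3 (quasi-likelihood, TMM, 10 or more counts in 3 or more libraries), with calls at a fold change of 2 and an adjusted p (Benjamini-Hochberg) of 0.05. Fits of 2 groups used 6 libraries, and averages and interactions all 24. Alternatives were DESeq2 1.42.0, its size factors in edgeR, voom with quality weights and limma 3.58.1 on log2(FPKM + 1) and log2(FPKM + 0.1) for a mean FPKM of at least 0.5, other filters, a replicate block, a length offset, all 24 libraries in 1 fit, and leaving out libraries. The test was checked on simulated data. Groups came from the labels. Members and lists were chosen with earlier results of these data known. Named in each comparison were members called, up to 3 per direction with the smallest p, and *Mki67*, *Pcna* and *Mcm2*; other members were named after their values were seen.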

Additional observations from a re-analysis of the deposited data

Results flagged for a closer look

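*Pcna* lay on opposite sides of 0 in 3 pairs of comparisons, with every library of a group on its own side in each comparison. The genotype effect under succinate was -0.72 (log2) in males and 0.53 in females, and the difference of 1.27 (SE 0.41) had an edgeR adjusted p of 0.414. In females the genotype effect was -0.41 in controls and 0.53 on succinate, and succinate gave -0.43 in wild type and 0.51 in *Ptk6*-/- mice. Both pairs have the same difference, 0.99 (SE 0.41, edgeR adjusted p = 0.536), since they use the same 4 groups. None passed the test across all genes. The female wild type mice on succinate include replicate 2, with heart transcripts, and the male *Ptk6*-/- mice on succinate include the library of lowest depth, whose *Pcna* level of 23.04 CPM was the lowest of the 24. Without those libraries the genotype effects under succinate were 0.31 in females and -0.45 in males. Without the 3 libraries that stand apart the differences were 0.77 and 0.74.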

How the results depend on the processing

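The count of members called, 0 in each of 13 comparisons, stayed 0 under 327 of 332 alternatives. In control females it was 2 by DESeq2, 6 by voom with quality weights, and 0 to 3 when each library was left out in turn; in wild type males, succinate against control, it was 5 by voom and 0 to 4 when each was left out. The cause was not tested. With the replicate block no count of members called changed (0 throughout; median in control males -0.10, main -0.08), and same-numbered mice did not deviate together (r from -0.356 to 0.234). Of 2694 alternative values of members named by smallest p, or as *Mki67*, *Pcna* and *Mcm2*, 150 changed sign without a call and 6 moved past the threshold. Calls of members named after their values were seen, such as *Kif20a* in wild type males, are not in that count. Medians of the members kept their sign under every alternative run for the genotype in females (control 0.11 to 0.46, succinate 0.26 to 0.72) and for succinate in *Ptk6*-/- females (0.07 to 0.40). So did those of both averages over strata for genotype and succinate and of the interaction in females. Medians turned for the genotype in males (control -0.33 to 0.34, succinate -0.74 to 0.09), for succinate in wild type males (-0.37 to 0.21), *Ptk6*-/- males (-0.79 to 0.07) and wild type females (-0.29 to 0.07), for sex (-0.03 to 0.23) and for the interaction in males (-1.003 to 0.42). Of these ends, 0.34, -0.74, 0.21, -0.79, 0.23 and -1.003 came from limma on log2(FPKM + 0.1), as did 0.72 and 0.40 above. That setting has no TMM step, and deposited FPKM were lowest in the libraries richest in ribosomal RNA for most members. Apart from *Fen1*, the lowest count of a member was 8, for *Ccne2* in the male *Ptk6*-/- library of lowest depth, and the next lowest were 9 for *Kif20a* and 13 for *Hmmr* and *Kif11*.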
